A study of Mus musculus with 68 samples.

Results

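The response of CAST/EiJ lung mRNA to the gas 1,3-butadiene (BD) was measured in 12 of the 24 RNA-seq libraries of the series, which held 68 samples in all. CAST/EiJ is a wild-derived inbred mouse strain. The libraries came from lungs of wild-type male mice, 5 exposed to BD for 6 h a day on weekdays over 2 weeks (title numbers 7, 9, 10, 11 and 12) and 7 kept in clean air (titles RNA_101 to RNA_105, called numbers over 100 below, and numbers 1 and 2). The sources used here give neither mouse age nor BD concentration. A sixth library with the CAST/EiJ BD label, number 8, was left out. Of 88 genes at least 3 log2 units apart between the strains in clean air, that library was nearer to C57BL/6J in 82 (93.2%), against 0 to 2 in the other 5 CAST/EiJ BD libraries. All genes of the count table were taken, and 16614 passed the filter on low counts. For the comparison between strains, 6 BD and 5 clean-air libraries of C57BL/6J, the common laboratory strain, were added, which gave 23 libraries. Of the 5 clean-air libraries of C57BL/6J, 1 had a number over 100, against 5 of the 7 in CAST/EiJ. Totals ran from 14678968 to 50001571 counts in the BD libraries and from 12679753 to 35057878 in the clean-air libraries. The labels give no cultures or litters, so p-values measure the spread between these libraries, technical spread included. All 12 libraries carried lung markers at high levels, with the type 2 cell surfactant gene Sftpc at 7926 to 13135 counts per 1000000 (CPM) and Cldn18 at 590.1 to 857 CPM.

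The clean-air libraries belong to 2 number series, and no BD library has a number over 100. What a series stands for could not be read from the labels. Clean-air numbers over 100 differed from clean-air numbers 1 and 2 in 2268 genes (13.7% of the genes tested; 859 or 5.17% higher and 1409 or 8.48% lower) at an adjusted p under 0.05. Every direction below was therefore also computed against numbers 1 and 2 alone. Only those 2 libraries share the number series of the BD libraries, so those values rest on 2 clean-air libraries.

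Butadiene is an industrial gas that lung and liver cytochromes, chiefly CYP2E1, oxidise to reactive epoxides. The epoxides alkylate DNA and proteins and are removed by epoxide hydrolase and by conjugation to glutathione. NRF2, the transcription factor encoded by Nfe2l2, is held in check by KEAP1, whose cysteines react with electrophiles. Once released, NRF2 binds antioxidant response elements and drives the genes that make, recycle and use glutathione and thioredoxin. Club cells of the airway lining secrete secretoglobins and are the main seat of cytochrome activity in mouse lung.

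The promoters of 4 genes of this pathway are shown because these genes rose whichever 1 of the 12 libraries was left out, and because a match to the core of the antioxidant response element lies in the window. The 300-base windows run from 250 bases before to 50 bases after the start of the gene, read 5′ to 3′ along the gene, from RefSeq with build GRCm38.p6. Capitals mark matches to TGACNNNGC or TGAGNNNGC on either strand, which read as GCNNNGTCA and GCNNNCTCA on the other strand.
Srxn1 (chr2:152105274-152105573, plus strand): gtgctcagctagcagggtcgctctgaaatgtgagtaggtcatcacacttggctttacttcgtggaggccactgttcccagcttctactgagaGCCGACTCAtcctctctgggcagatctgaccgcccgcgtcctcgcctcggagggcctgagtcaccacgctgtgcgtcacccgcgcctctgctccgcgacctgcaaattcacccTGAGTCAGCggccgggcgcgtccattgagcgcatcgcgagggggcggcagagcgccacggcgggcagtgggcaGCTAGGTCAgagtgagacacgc
Slc7a11 (chr3:50443564-50443863, minus strand): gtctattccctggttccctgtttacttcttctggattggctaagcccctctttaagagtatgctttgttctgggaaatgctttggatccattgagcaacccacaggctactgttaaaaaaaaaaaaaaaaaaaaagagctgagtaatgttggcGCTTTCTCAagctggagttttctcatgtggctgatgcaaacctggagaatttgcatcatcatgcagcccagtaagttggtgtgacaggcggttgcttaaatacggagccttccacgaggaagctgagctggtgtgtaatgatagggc
Osgin1 (chr8:119436897-119437196, plus strand): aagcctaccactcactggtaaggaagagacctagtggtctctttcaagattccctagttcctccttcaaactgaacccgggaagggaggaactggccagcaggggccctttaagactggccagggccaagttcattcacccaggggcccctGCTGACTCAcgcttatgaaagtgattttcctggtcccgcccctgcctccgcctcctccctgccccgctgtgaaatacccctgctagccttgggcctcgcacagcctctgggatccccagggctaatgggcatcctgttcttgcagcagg
Txnrd1 (chr10:82858956-82859255, plus strand): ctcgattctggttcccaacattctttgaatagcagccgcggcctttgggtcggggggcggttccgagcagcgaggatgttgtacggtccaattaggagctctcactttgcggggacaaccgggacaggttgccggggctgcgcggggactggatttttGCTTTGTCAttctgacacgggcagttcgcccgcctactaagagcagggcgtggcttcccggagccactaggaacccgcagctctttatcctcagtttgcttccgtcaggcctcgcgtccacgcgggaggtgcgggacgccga

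The Srxn1 window held 3 matches, 1 of them TGAGTCAGC at bases 206 to 214, and the other 3 windows held 1 each. Of the 13 NRF2 list genes called higher below, 11 had a window in the promoter table and 8 of these (72.7%) held a match, against 30.8% of all 27025 genes in the table. The windows of Nqo1, Gstm1 and Ugt1a6a held none. The list was drawn up from NRF2 targets and glutathione genes, so these shares are no test of the factor. A match describes the letters and not a bound site, and a window without one says nothing about the factor.

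In BD lungs, 13 of 62 tested genes of a list of NRF2 targets and glutathione genes were called higher, among them Srxn1, Gclc and Slc7a11. Among the genes called lower, Cd24a and Fgl2 kept their calls whichever 1 of the 12 libraries was left out. The airway genes Scgb3a2 and Sox2 were also called lower, but lost their calls in 10 and 4 of the 12 leave-outs. At an adjusted p under 0.05 (edgeR quasi-likelihood test, Benjamini-Hochberg adjustment), 159 of 16614 genes were called (0.957%), of which 89 were higher (0.536%) and 70 lower (0.421%) under BD. By the same rule DESeq2 called 1463 genes (8.81%; 4.66% higher and 4.15% lower) and limma-voom 256 (1.54%; 0.987% higher and 0.554% lower), of which 154 and 155 were among the 159. An unadjusted p under 0.05 was reached by 3896 of all genes (23.5%), 1852 higher (11.1%) and 2044 lower (12.3%), against which the unadjusted counts of the lists below are to be read. At least a 2-fold difference was seen in 26 of the 159 called genes, 18 higher and 8 lower. In 121 of the 159 the BD and clean-air libraries did not overlap, against 2.14% of all genes tested (1.19% higher and 0.957% lower). The 159 were called on these same libraries, so a high share without overlap follows from the selection and is no separate support. Against clean-air numbers 1 and 2 alone, all 159 had the same direction and 41 were called (20 higher and 21 lower), where 363 of all genes were called (2.18%; 0.253% higher and 1.93% lower). That test kept all 12 libraries in the fit, with the clean-air number series as separate means, and every p against numbers 1 and 2 below comes from it. With numbers over 100 out of the fit as well, 15 genes were called (1 higher, Srxn1, and 14 lower), and 2 of the 15 were among the 159. Srxn1 had an edgeR adjusted p of 0.0277 there. These comparisons share their BD libraries and 2 of their clean-air libraries.

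The count depended on single libraries. It lay between 21 and 89 without any 1 of the 5 BD libraries or of clean-air numbers over 100, and was 1675 without clean-air number 1 and 760 without clean-air number 2. An adjusted p between 0.04 and 0.05 was held by 98 of the 159. The 18 genes that were called whichever library was left out were 16 higher genes (Srxn1, Gclc, Osgin1, Txnrd1, Chac1, Gstm1, Tsku, Aox1, Akr1b8, Ampd3, Snhg11, Nqo1, Amigo1, Slc7a11, Cars and Tbcel) and 2 lower genes (Cd24a and Fgl2). Libraries of the 2 groups did not overlap for any of the 18. In the fit that kept all 12 libraries, 17 of them were also called against numbers 1 and 2 alone, all except Slc7a11. With numbers over 100 out of the fit, Srxn1 was the only higher gene called. On the NRF2 list described next were 7 of the 18. These 18 were singled out after their values were seen.

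**Figure D1:**
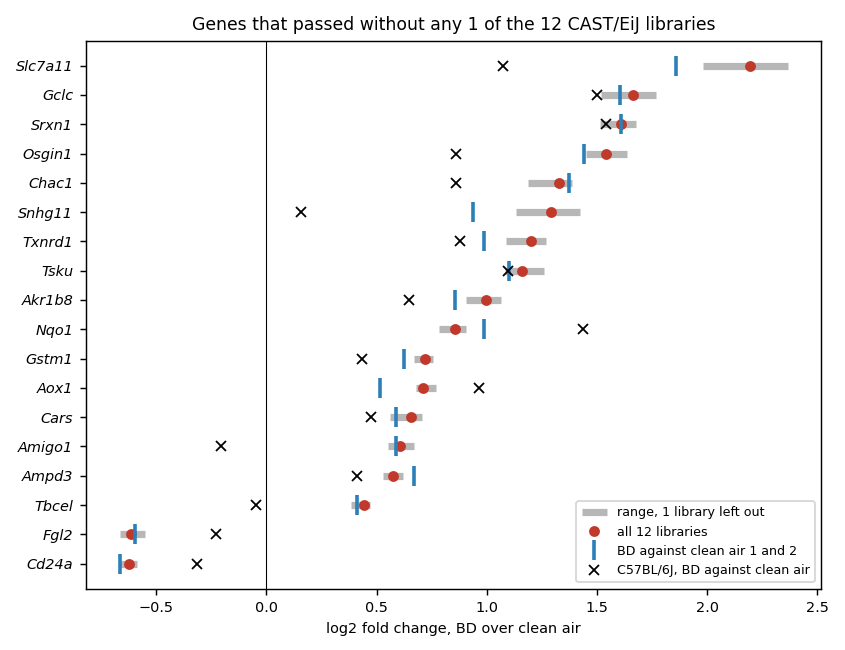
Log2 fold change of BD over clean air for the 18 genes called whichever 1 of the 12 CAST/EiJ libraries was left out. Red points use all 12 libraries, grey bars give the range with 1 library left out, blue ticks use clean-air numbers 1 and 2 alone and black crosses give C57BL/6J. Slc7a11 has the highest fold in CAST/EiJ (2.20), and the crosses of Snhg11 (0.15), Amigo1 (-0.20) and Tbcel (-0.05) lie near 0.

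Some enzymes and carriers of glutathione and thioredoxin chemistry rose in BD lungs. Of the 62 tested NRF2 and glutathione genes, 13 were called higher and 0 lower, against 0.536% called higher among all genes. The other 49 were not called. Over the list, 45 members had a log2 fold change above 0 and 17 below 0. An unadjusted p under 0.05 was reached by 26 higher and 2 lower members, DESeq2 called 19 higher and 1 lower, and limma-voom 14 higher and 0 lower. The median log2 fold change was 0.18 over the list and -0.02 over all genes. Srxn1, which encodes sulfiredoxin and restores over-oxidised peroxiredoxins, had 80.8, 128, 99.0, 92.0 and 106.02 CPM in BD numbers 7, 9, 10, 11 and 12, against a lowest of 30.8, a median of 33.1 and a highest of 35.6 CPM in clean air. Its lowest BD library lay above the highest clean-air library. Srxn1 rose 3.05-fold (log2 1.61 ± 0.09 SE, edgeR adjusted p = 9.27e-07) and by the same log2 1.61 against numbers 1 and 2 alone (adjusted p = 0.000783).

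Gclc encodes the catalytic subunit of glutamate-cysteine ligase, the first step of glutathione synthesis. It had 710.3, 948, 581, 481 and 691 CPM in the BD libraries, against a lowest of 174, a median of 207 and a highest of 267 CPM in clean air. The groups did not overlap, and Gclc rose 3.17-fold (log2 1.66 ± 0.16 SE, edgeR adjusted p = 0.000203). Slc7a11, the cystine importer xCT that supplies cysteine for glutathione, had 53.02, 72.1, 28.9, 48.9 and 27.6 CPM in the BD libraries, against a lowest of 6.25, a median of 9.10 and a highest of 16.98 CPM in clean air. Its BD libraries spread more widely than those of Srxn1, with numbers 10 and 12 the lowest, but none reached the clean-air range. Slc7a11 rose 4.58-fold (log2 2.20 ± 0.28 SE, edgeR adjusted p = 0.00511), and by log2 1.86 against numbers 1 and 2 alone, where it was not called (adjusted p = 0.0622).

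Osgin1, an oxidative-stress-induced growth inhibitor, had 22.3, 31.4, 27.7, 26.2 and 35.1 CPM in the BD libraries, against a lowest of 7.41, a median of 9.33 and a highest of 13.7 CPM in clean air (log2 1.54 ± 0.14 SE, edgeR adjusted p = 0.000203). Txnrd1, the cytosolic thioredoxin reductase, had 115, 190.0, 159, 125 and 141 CPM in the BD libraries, against a lowest of 50.4, a median of 62.2 and a highest of 73.7 CPM in clean air (log2 1.20 ± 0.12 SE, edgeR adjusted p = 0.000495). BD number 9 was the highest library for Srxn1, Gclc, Slc7a11, Txnrd1, Nqo1 and Gstm1, and number 12 for Osgin1. Nqo1, a quinone reductase, had 30.6, 43.5, 36.4, 37.4 and 34.97 CPM in the BD libraries, against a lowest of 14.9, a median of 21.7 and a highest of 23.5 CPM in clean air (log2 0.85 ± 0.12 SE, edgeR adjusted p = 0.0043). Gstm1, a glutathione transferase, had 356, 416, 380.4, 343 and 336 CPM in the BD libraries, against a lowest of 193, a median of 220.4 and a highest of 255 CPM in clean air (log2 0.72 ± 0.08 SE, edgeR adjusted p = 0.000926). Reads may be shared among near-identical Gstm genes, so the value of a single member is uncertain.

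**Figure D2:**
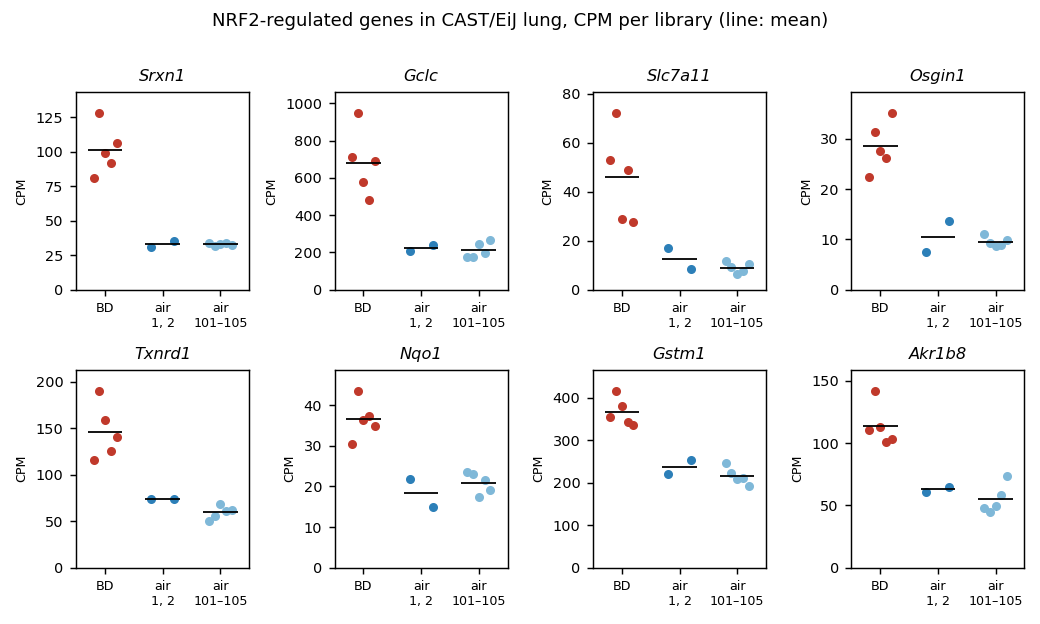
CPM of 7 genes of the NRF2 list and of the aldo-keto reductase Akr1b8 in every CAST/EiJ library. Red points are the 5 BD libraries, dark blue points clean-air numbers 1 and 2, light blue points clean-air numbers over 100, and lines are means; each axis starts at 0. In all 8 panels the lowest BD library lies above the highest clean-air library.

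The other 6 called members of the list rose by less and were less steady; they are named after their values were seen. Gclm, the regulatory subunit that partners Gclc, had a log2 fold change of 0.81, the glutathione transferase Gsta3 0.59, the glutathione transferase Gstp1 0.50, glutathione reductase Gsr 0.46, the UDP-glucuronosyltransferase Ugt1a6a 0.37 and G6pdx, which makes NADPH, 0.37. Their edgeR adjusted p was 0.0292 for Gsr and 0.0458 to 0.0495 for the other 5. Gsr was called in 8 of the 12 leave-outs of 1 library and the other 5 in 2 or 3 of 12. Gstp1 shares most of its sequence with Gstp2, and Ugt1a6a shares exons with the other Ugt1a genes, among them Ugt1a5, which was also called, so reads can be split among them. Outside the list, genes of the same chemistry were also called higher: glutathione synthetase Gss (log2 0.37, edgeR adjusted p = 0.0239) and Mafg (log2 0.61, edgeR adjusted p = 0.0138), which encodes a small MAF protein that pairs with NRF2.

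The regulator and its sensor were not called. Nfe2l2 had a log2 fold change of -0.12 (edgeR adjusted p = 0.369) and Keap1 of 0.14 (adjusted p = 0.345). Heme oxygenase Hmox1 had 39.99, 91.2, 73.0, 82.9 and 84.5 CPM in the BD libraries, against a lowest of 36.9, a median of 42.7 and a highest of 57.5 CPM in clean air. BD number 7 lay within the clean-air range and the other 4 above it, and Hmox1 was not called (log2 0.75 ± 0.17 SE, edgeR adjusted p = 0.0511). Against clean-air numbers 1 and 2 alone 13 list members were called higher, 7 of the 13 above and 6 others (Blvrb, Cbr3, Esd, Ftl1, Mgst2 and Taldo1). Of those 6, Blvrb, Cbr3, Ftl1, Mgst2 and Taldo1 were also called higher in clean-air numbers over 100 than in 1 and 2, by log2 0.57, 0.55, 0.52, 0.58 and 0.40.

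Some genes of amino acid supply and of the ATF4 stress response rose as well. Of 30 tested genes of the endoplasmic reticulum stress and ATF4 list, 3 were called higher (Chac1, Slc7a11 and Mthfd2) and 0 lower, and the list median was -0.07. An unadjusted p under 0.05 was reached by 4 higher and 10 lower members, and DESeq2 called 3 higher and 6 lower. Chac1, which breaks down glutathione, had 4.38, 6.79, 4.55, 4.07 and 4.78 CPM in the BD libraries, against a lowest of 1.65, a median of 1.91 and a highest of 2.28 CPM in clean air (log2 1.33 ± 0.15 SE, edgeR adjusted p = 0.000926). Mthfd2, a mitochondrial enzyme of one-carbon metabolism, had 10.2, 16.4, 9.50, 7.58 and 13.6 CPM in the BD libraries, against a lowest of 3.85, a median of 4.68 and a highest of 6.90 CPM in clean air (log2 1.16 ± 0.19 SE, edgeR adjusted p = 0.02). Neither gene overlapped between the groups, and Mthfd2 lost its call on leaving out either of 2 libraries (BD number 9 or clean-air RNA_104, adjusted p 0.055 and 0.057). Outside the list, cysteinyl-tRNA synthetase Cars (log2 0.65), isoleucyl-tRNA synthetase Iars (0.44), the cationic amino acid carrier Slc7a1 (0.64) and the glycine carrier Slc6a9 (0.44) were called higher; they were picked out after their values were seen. The chaperone genes of the list were not called, with log2 fold changes of -0.36 for Hspa5 (edgeR adjusted p = 0.0963) and -0.37 for Pdia6 (adjusted p = 0.0522).

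Enzymes that act on BD, its epoxides and other foreign compounds were called in both directions. Of 57 tested genes of the list of BD activation and phase I metabolism, 3 were called higher and 1 lower, with a median of -0.09. Among all genes 0.536% were called higher and 0.421% lower. An unadjusted p under 0.05 was reached by 6 higher and 6 lower members of the 57, near the shares of all genes (11.1% and 12.3%). The carboxylesterase Ces1g had 82.8, 77.1, 61.3, 55.0 and 67.0 CPM in the BD libraries, against a lowest of 20.1, a median of 24.3 and a highest of 47.6 CPM in clean air (log2 1.23 ± 0.20 SE, edgeR adjusted p = 0.02). The aldo-keto reductase Akr1b8 had 110.5, 142, 113, 100.7 and 103.2 CPM in the BD libraries, against a lowest of 44.9, a median of 58.7 and a highest of 73.3 CPM in clean air (log2 0.99 ± 0.12 SE, edgeR adjusted p = 0.00165). The aldehyde oxidase Aox1 had 129, 125, 133, 101.9 and 122 CPM in the BD libraries, against a lowest of 64.3, a median of 72.0 and a highest of 85.3 CPM in clean air (log2 0.71 ± 0.08 SE, edgeR adjusted p = 0.00124). These 3 were higher in every BD library than in any clean-air library.

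Cyp2e1, the main BD oxidase, had 43.1, 30.6, 38.5, 35.6 and 112 CPM in the BD libraries, against a lowest of 19.0, a median of 57.3 and a highest of 209 CPM in clean air. Its clean-air values spread over the whole BD range, and it was not called (log2 -0.68 ± 0.58 SE, edgeR adjusted p = 0.501). The 2 highest clean-air values, 136 and 209 CPM, were those of numbers 1 and 2, which also carried the highest liver marker levels; the part of liver RNA in the Cyp2e1 value was not tested. Epoxide hydrolase Ephx1 (log2 0.03 ± 0.11 SE, edgeR adjusted p = 0.883) and the glutathione transferase Gstt1 (log2 0.01 ± 0.10 SE, adjusted p = 0.973) overlapped between the groups. Gstt1 was higher in clean-air numbers over 100 than in 1 and 2 (log2 0.35, adjusted p = 0.0456).

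Of 47 tested p53 targets, 3 were called higher (6.38%, against 0.536% of all genes) and 0 lower, with a median of 0.07; an unadjusted p under 0.05 was reached by 14 higher and 1 lower, and DESeq2 called 5 higher and 0 lower. The 3 were the kinase gene Plk3 (log2 0.58 ± 0.11 SE, edgeR adjusted p = 0.0331), the RNA-binding protein gene Zmat3 (log2 0.57 ± 0.11 SE, adjusted p = 0.0388) and Mdm2, the ubiquitin ligase that limits p53 (log2 0.29 ± 0.06 SE, adjusted p = 0.0471). Zmat3 had 25.7, 23.6, 30.0, 22.9 and 28.0 CPM in the BD libraries, against a lowest of 12.7, a median of 17.5 and a highest of 20.4 CPM in clean air. Zmat3 and Mdm2 did not overlap between the groups, while Plk3 did. None of the 3 was called against numbers 1 and 2 alone (adjusted p 0.19 for Plk3, 0.237 for Zmat3 and 0.172 for Mdm2), and they kept their calls in 3, 4 and 2 of the 12 leave-outs. Cdkn1a, the cell cycle inhibitor p21, had 27.3, 34.9, 30.6, 24.6 and 47.9 CPM in the BD libraries, against a lowest of 18.7, a median of 23.9 and a highest of 35.9 CPM in clean air (log2 0.40 ± 0.18 SE, edgeR adjusted p = 0.2). The groups overlapped and Cdkn1a was not called. In the lists of excision repair (54 genes), double-strand break, crosslink and mismatch repair (57 genes) and the cell cycle (48 genes), 0 were called by edgeR in either direction. An unadjusted p under 0.05 was reached by 5 higher and 6 lower excision repair genes, by 11 higher and 2 lower genes of the second list and by 10 higher and 1 lower cell cycle genes, and DESeq2 called 0 and 1, 3 and 1, and 1 and 1.

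Of 21 tested club cell genes, 1 was called lower, Scgb3a2, and 0 higher. Scgb3a2, a secretoglobin of club cells, had 152, 87.5, 223, 105.7 and 211 CPM in the BD libraries, against a lowest of 292, a median of 418 and a highest of 644 CPM in clean air. All BD libraries lay below all clean-air libraries, and clean-air numbers 1 and 2, at 642 and 644 CPM, lay above numbers over 100. Scgb3a2 fell by 1.51 on the log2 scale (SE 0.31, edgeR adjusted p = 0.0486) and by 2.04 against numbers 1 and 2 alone (adjusted p = 0.0181). The call was kept in 2 of the 12 leave-outs, with the highest adjusted p, 0.108, without clean-air RNA_104. Of the 21 club cell genes 20 had a log2 fold change below 0, with a median of -0.39 (all genes, -0.02), which became -0.19 with number 8 kept and -0.18 with the number series as a covariate. An unadjusted p under 0.05 was reached by 1 higher and 12 lower members, and DESeq2 called 10 lower and limma-voom 1. Against numbers 1 and 2 alone 5 were called lower, among them Lypd2 (log2 -1.33, adjusted p = 0.0215), Gabrp (-0.997, 0.0131), Scgb3a1 (-2.42, 0.03) and Bpifb1 (-2.43, 0.0437). The mean log2 level of the club cell genes was 6.87 to 7.40 in BD libraries, against 7.42 to 7.67 in clean-air numbers over 100 and 7.67 to 7.97 in numbers 1 and 2.

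Scgb1a1, the main club cell secretoglobin, had 2989, 4588, 6165, 3507 and 4376 CPM in the BD libraries, against a lowest of 5914, a median of 6596 and a highest of 8495 CPM in clean air. BD number 10 lay within the clean-air range and the other 4 below it, and the gene was not called (log2 -0.64 ± 0.16 SE, edgeR adjusted p = 0.0648). In bulk RNA, fewer cells of a type and less RNA per cell cannot be told apart. Sox2, a transcription factor of conducting airway epithelium, had 6.23, 5.03, 4.16, 4.74 and 4.59 CPM in the BD libraries, against a lowest of 7.06, a median of 8.40 and a highest of 11.2 CPM in clean air. The groups did not overlap, and Sox2 fell by 0.86 on the log2 scale (SE 0.15, edgeR adjusted p = 0.0246) and by 1.15 against numbers 1 and 2 alone (adjusted p = 0.0111), with 8 of 12 leave-outs keeping the call. The ciliated cell list had 0 of 30 genes called in either direction (14 at an unadjusted p under 0.05, all lower; 6 called lower by DESeq2 and 0 by limma-voom), a median of -0.39, and a median of -0.49 in clean-air numbers over 100 against 1 and 2. Against numbers 1 and 2 alone 11 of the 30 were called lower (median -0.69), where 1.93% of all genes were called lower.

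**Figure D3:**
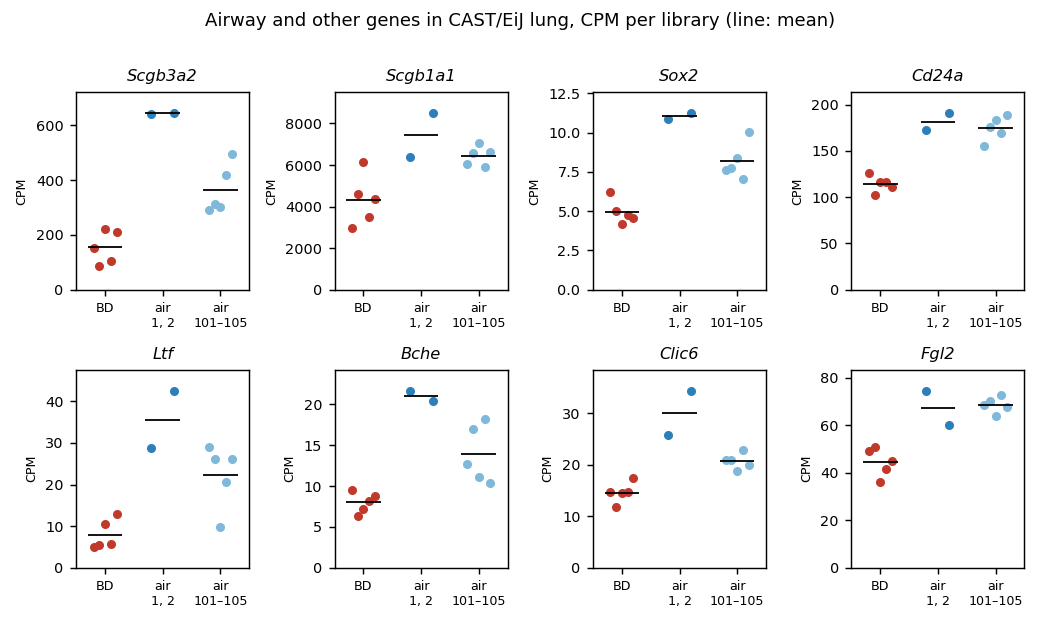
CPM of the airway genes Scgb3a2, Scgb1a1 and Sox2 and of 5 other genes in every CAST/EiJ library, with BD libraries in red, clean-air numbers 1 and 2 in dark blue and numbers over 100 in light blue; lines are means. All BD values lie below all clean-air values for Scgb3a2, Sox2, Cd24a, Bche, Clic6 and Fgl2, and 1 BD library reaches the clean-air range for Scgb1a1, as 2 do for Ltf.

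Of the lower genes, Cd24a was the steadiest. Cd24a, which encodes a small surface glycoprotein of epithelial and immune cells, had 126, 102.5, 117, 116 and 110.5 CPM in the BD libraries, against a lowest of 156, a median of 175 and a highest of 191 CPM in clean air. It fell by 0.63 on the log2 scale (SE 0.07, edgeR adjusted p = 0.000926) and by 0.66 against numbers 1 and 2 alone (adjusted p = 0.009). Fgl2, a fibrinogen-like protein made by immune cells, had 49.0, 50.8, 36.2, 41.6 and 44.8 CPM in the BD libraries, against a lowest of 60.2, a median of 68.4 and a highest of 74.3 CPM in clean air (log2 -0.62 ± 0.09 SE, edgeR adjusted p = 0.00511). Both were lower in every BD library than in any clean-air library.

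Larger falls were less steady. Ltf, the iron-binding lactoferrin of neutrophil granules and airway glands, had 4.92, 5.37, 10.5, 5.69 and 13.01 CPM in the BD libraries, against a lowest of 9.75, a median of 26.2 and a highest of 42.5 CPM in clean air (log2 -1.72 ± 0.36 SE, edgeR adjusted p = 0.0493). Ltf was the single called member of 15 tested neutrophil genes, whose median was 0.25. Ms4a2, the beta chain of the IgE receptor of mast cells, had 0.0674 to 0.237 CPM in the BD libraries and 0.200 to 0.827 CPM in clean air (log2 -2.07 ± 0.38 SE, edgeR adjusted p = 0.0331) and was the single called member of 8 tested mast cell and basophil genes (list median -0.62). The tissue kallikrein Klk1 had 1.25, 1.63, 1.01, 1.34 and 1.62 CPM in the BD libraries, against a lowest of 2.07, a median of 3.14 and a highest of 7.06 CPM in clean air (log2 -1.34 ± 0.28 SE, edgeR adjusted p = 0.0475). Ltf and Ms4a2 overlapped between the groups and Klk1 did not, and the 3 kept their calls in 4, 3 and 2 of the 12 leave-outs. Ms4a2 lost its call in 4 leave-outs and fell below the filter on low counts in the rest. The butyrylcholinesterase gene Bche had 9.57, 6.32, 7.19, 8.14 and 8.74 CPM in the BD libraries, against a lowest of 10.4, a median of 16.97 and a highest of 21.6 CPM in clean air (log2 -0.99 ± 0.19 SE, edgeR adjusted p = 0.0388).

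The other falls named by the same rule were those of Snord89, a small nucleolar RNA (log2 -1.70), Bex2 (-1.29), C1qtnf3, a secreted C1q family protein (-1.16), Wdr72 (-1.04), Galnt5, a glycosyltransferase that starts mucin-type sugar chains (-0.96), the tight junction gene Cldn8 (-0.87), and the transcription factor gene Osr1 (-0.86). From the lists, the ATP-sensitive potassium channel gene of pericytes Kcnj8 was also lower (-0.70). Their edgeR adjusted p ran from 0.0308 to 0.0493, and each kept its call in 3 to 7 of the 12 leave-outs. Against numbers 1 and 2 alone, C1qtnf3, Wdr72, Cldn8 and Osr1 were called, with log2 fold changes of -1.34, -1.37, -1.02 and -1.05, and Snord89, Bex2, Galnt5 and Kcnj8 were not. The called class I histocompatibility genes of the Q region, H2-Q1, H2-Q5, H2-Q7 and H2-Q9, had log2 fold changes of -0.60, -0.66, -0.55 and -0.55; they are close copies of one another, H2-Q7 and H2-Q9 hold identical counts, and they were picked out after their values were seen.

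Among the other high folds, the anion exchanger Slc26a4 (pendrin), which exports bicarbonate and iodide, varied most. Slc26a4 had 20.6, 19.1, 15.6, 10.1 and 1.88 CPM in BD numbers 7, 9, 10, 11 and 12, against a lowest of 1.63, a median of 2.05 and a highest of 4.03 CPM in clean air. BD number 12 lay within the clean-air range and the other 4 above it. Slc26a4 rose 5.48-fold (log2 2.45 ± 0.46 SE, edgeR adjusted p = 0.0458), was not called against numbers 1 and 2 alone (log2 2.19, adjusted p = 0.278), and kept its call in 3 of 12 leave-outs. It was the single called gene of 5 tested thyroid genes and of 27 tested genes of type 2 inflammation and mucus. The thyroid marker Tg had 2.69 to 5.43 CPM in the BD libraries and 1.28 to 2.84 CPM in clean air (edgeR adjusted p = 0.134), and the summed level of the thyroid genes, Slc26a4 included, was 11.1 to 32.3 CPM in the BD libraries and 7.94 to 13.996 CPM in clean air. Of the other thyroid genes, Pax8, Slc5a5, Foxe1 and Duoxa2 were below the filter on low counts. The part of other tissue in the Slc26a4 value was not tested.

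Snhg11, a small nucleolar RNA host gene, had 53.8, 56.0, 82.8, 53.3 and 46.2 CPM in the BD libraries, against a lowest of 18.6, a median of 22.8 and a highest of 36.6 CPM in clean air (log2 1.29 ± 0.17 SE, edgeR adjusted p = 0.00349). Tsku, a secreted leucine-rich proteoglycan, had 36.3, 34.3, 39.8, 25.6 and 43.2 CPM in the BD libraries, against a lowest of 12.9, a median of 16.3 and a highest of 20.4 CPM in clean air (log2 1.16 ± 0.13 SE, edgeR adjusted p = 0.000926). Neither gene overlapped between the groups. Eid3, a subunit of the SMC5-SMC6 complex, had 9.77, 15.6, 9.39, 8.22 and 8.96 CPM in the BD libraries, against a lowest of 1.59, a median of 2.45 and a highest of 5.65 CPM in clean air (log2 1.81 ± 0.29 SE, edgeR adjusted p = 0.019). Its 2 highest clean-air libraries were numbers 1 and 2, at 4.38 and 5.65 CPM, and Eid3 was lower in clean-air numbers over 100 than in those 2 (log2 -1.21, adjusted p = 0.0101). Against numbers 1 and 2 alone its fold was log2 1.05 (adjusted p = 0.0673). The RNA-binding protein gene Igf2bp1 (log2 1.23), the minichromosome maintenance domain gene Mcmdc2 (1.26) and the bitter taste receptor gene Tas2r143 (1.60) also had high folds. Their levels were under 10 CPM in every library, with edgeR adjusted p of 0.0239, 0.0455 and 0.0493. Mcmdc2 had 1.04 to 1.74 CPM in the BD libraries and 0.309 to 0.817 CPM in clean air. Tas2r143 had 0.606 to 1.54 CPM in the BD libraries and 0.117 to 0.618 CPM in clean air, and its groups overlapped. The calls of Igf2bp1, Mcmdc2 and Tas2r143 were lost in 3, 10 and 10 of the 12 leave-outs. Against numbers 1 and 2 alone none was called (edgeR adjusted p 0.0624, 0.199 and 0.0638).

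The same exposure was then compared between the strains, by testing whether the log2 fold change of BD over clean air differed between CAST/EiJ and C57BL/6J over 23 libraries. The difference was called in 1641 of 17377 genes (9.44%; 977 or 5.62% higher and 664 or 3.82% lower in CAST/EiJ) and in 71 of the 159 genes above. In C57BL/6J alone 1857 genes were called (10.7%; 730 or 4.2% higher and 1127 or 6.49% lower). Of the 159, 49 were called in the same direction in C57BL/6J (42 higher and 7 lower), which is 30.8% of the CAST/EiJ calls and 2.64% of the C57BL/6J calls, and 2 were called in the opposite direction. Most clean-air libraries of CAST/EiJ but only 1 of C57BL/6J had a number over 100. The test over 23 libraries therefore does not separate the number series from the strain. With clean-air numbers over 100 left out of both strains, 320 genes differed, and with the number series as a covariate 84 did. Below, CAST/EiJ fold changes come from the 12 libraries, and those of C57BL/6J and the differences from the fit of 23.

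The antioxidant genes called in CAST/EiJ were also called in C57BL/6J. All 13 called NRF2 list genes were also called higher in C57BL/6J, where 36 of the 62 were. In the fit of 23 libraries, from which those 36 come, 18 of the 62 were called higher and 1 lower in CAST/EiJ. Srxn1 had a log2 fold change of 1.61 in CAST/EiJ and 1.54 in C57BL/6J, a difference of 0.06 (edgeR adjusted p = 0.756). Gclc had 1.66 in CAST/EiJ and 1.499 in C57BL/6J, a difference of 0.16 (adjusted p = 0.624). Nqo1 had 0.85 in CAST/EiJ and 1.44 in C57BL/6J, a difference of -0.59 (adjusted p = 0.0368), which was not called without the numbers over 100 (adjusted p = 0.195) or with the covariate (0.15). Over the 62 genes the difference was called higher in CAST/EiJ for 1 and lower for 9, and for 0 and 1 without the numbers over 100. Over the 57 genes of BD activation and phase I metabolism it was called higher for 0 and lower for 15, and for 0 and 5 without the numbers over 100.

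Scgb3a2 had a log2 fold change of -1.51 in CAST/EiJ and 0.20 in C57BL/6J, a difference of -1.71 (edgeR adjusted p = 0.02). It was -2.52 without the numbers over 100 (adjusted p = 0.015), -1.73 with the covariate (0.0675) and -1.23 with number 8 kept (0.104). Of the 21 club cell genes, 0 differed higher and 7 lower in CAST/EiJ, 1 and 6 did so without the numbers over 100, and 0 and 1 with the covariate. Snhg11 had 1.29 in CAST/EiJ and 0.15 in C57BL/6J (difference 1.13, adjusted p = 0.0147), and was called without the numbers over 100 (0.0421) but not with the covariate (0.0693). Amigo1, an adhesion molecule gene, had 0.61 in CAST/EiJ and -0.20 in C57BL/6J (difference 0.81, edgeR adjusted p = 0.00149). It was picked out after its values were seen, and its difference without the numbers over 100 or with the covariate is not given.

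Several gene groups that moved in C57BL/6J held 0 called genes in CAST/EiJ in the fit of 12 libraries. In the fit of 23, 1 B cell gene and 1 T cell gene were called lower in CAST/EiJ and 0 higher. There, 2 glucocorticoid response genes were called higher and 1 lower, and 1 and 1 of the immediate early genes. Of 35 B cell genes, 0 were called in CAST/EiJ (median log2 fold change 0.02; 1 lower at an unadjusted p under 0.05; 0 called by DESeq2 or limma-voom), while 30 were called lower in C57BL/6J (median -1.26). The CAST/EiJ median was -0.36 against numbers 1 and 2 alone (0 called) and -0.41 with the number series as a covariate. The difference was called for 9 of the 35, all higher in CAST/EiJ, and for 2 without the numbers over 100 and 0 with the covariate. Of 33 T cell genes, 0 were called in CAST/EiJ (median 0.05; 4 higher and 1 lower at an unadjusted p under 0.05; 1 and 1 called by DESeq2, 0 by limma-voom) and 17 lower in C57BL/6J (median -0.67), and the difference was called higher for 10, for 1 without the numbers over 100 and for 0 with the covariate. The CAST/EiJ median of the T cell genes was -0.07 against numbers 1 and 2 alone and -0.17 with the covariate. The mean log2 level of the B cell genes was 2.23 to 3.04 in the BD libraries, against 1.97 to 3.01 in clean-air numbers over 100 and 2.92 to 3.28 in numbers 1 and 2.

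Of 27 glucocorticoid response genes, 0 were called in CAST/EiJ (median -0.06; 4 higher and 5 lower at an unadjusted p under 0.05; 3 and 2 called by DESeq2, 0 by limma-voom), while in C57BL/6J 13 were called higher and 1 lower (median 0.59). The difference was called lower in CAST/EiJ for 12, and for 2 without the numbers over 100 and 2 with the covariate. The CAST/EiJ median was 0.26 against numbers 1 and 2 alone and 0.15 with the covariate. Of 25 immediate early genes, 0 were called in CAST/EiJ (median -0.07; 2 higher and 4 lower at an unadjusted p under 0.05; 1 and 1 called by DESeq2, 0 by limma-voom) and 12 lower in C57BL/6J (median -0.63), with the difference called higher in CAST/EiJ for 6, for 1 without the numbers over 100 and for 0 with the covariate. In all 4 groups the median kept the direction of the difference in both of these fits, at 1.00 for B cells, 0.82 for T cells, -0.53 for glucocorticoid and 0.70 for immediate early genes without the numbers over 100.

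**Figure D4:**
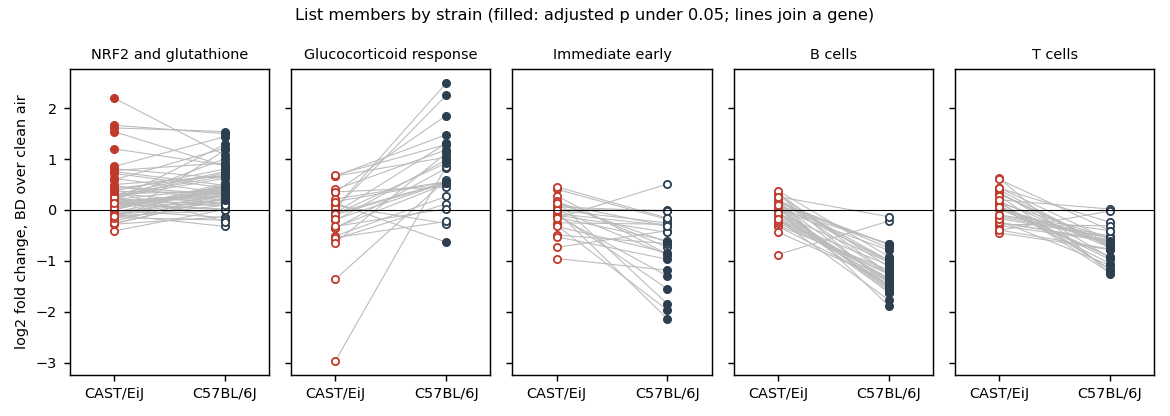
Log2 fold change of BD over clean air for the tested members of 5 gene lists, in CAST/EiJ at the left and C57BL/6J at the right of each panel, with lines joining a gene. Filled points are called at an adjusted p under 0.05. The median of the NRF2 list lies above 0 in both strains (0.18 in CAST/EiJ and 0.35 in C57BL/6J). The B cell and T cell medians are 0.02 and 0.05 in CAST/EiJ (-0.36 and -0.07 against clean-air numbers 1 and 2 alone) and -1.26 and -0.67 in C57BL/6J.

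Other gene groups differed between the clean-air number series, to unlike degrees. Of 76 cytosolic ribosomal protein genes, 0 were called against all clean air (52 at an unadjusted p under 0.05, all lower; 16 called lower by DESeq2 and 0 by limma-voom), with a median of -0.29. The median was 0.02 against numbers 1 and 2 alone and -0.39 against numbers over 100 alone, and clean-air numbers over 100 exceeded 1 and 2 by a median of 0.42, with 43 genes called higher. Of 74 oxidative phosphorylation genes, the complex I subunits Ndufc1 (log2 -0.41, edgeR adjusted p = 0.0458) and Ndufc2 (-0.51, 0.0493) were called lower. Ndufc2 was higher in clean-air numbers over 100 than in 1 and 2 (log2 0.45, edgeR adjusted p = 0.0203), and its log2 fold change against 1 and 2 alone was -0.17. Ndufc1 was not called between the series (log2 0.05, adjusted p = 0.808), and its log2 fold change against 1 and 2 alone was -0.37. Neither was called against 1 and 2 alone. Of the 74 genes, 9 were called higher in clean-air numbers over 100 than in 1 and 2. All 74 had a log2 fold change below 0, with a median of -0.26 against all clean air and -0.15 against numbers 1 and 2 alone. Of 62 histone modifier and chromatin genes 0 were called (33 higher and 2 lower at an unadjusted p under 0.05; 18 called higher by DESeq2 and 0 by limma-voom), with a median of 0.21 against all clean air and 0.04 against numbers 1 and 2 alone.

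Liver genes followed single libraries. Of 20 tested, 0 were called against all clean air (1 lower at an unadjusted p under 0.05; 0 called by DESeq2), with a median of -2.47, and 19 were called lower against numbers 1 and 2 alone. Against numbers over 100 alone the median was 2.08, with 6 called higher and 0 lower, where 11.8% of all genes were called higher and 11.4% lower. The median against all clean air was 0.49 by DESeq2 and 0.39 without clean-air number 2. Albumin (Alb) had 25.7, 32.7, 18.7, 64.2 and 38.8 CPM in the BD libraries, 1.46 to 4.45 CPM in clean-air numbers over 100, 92.9 CPM in number 1 and 945 CPM in number 2. The squamous keratin Krt13 was high in BD numbers 7, 9, 11 and 12 (187 to 887 CPM) and in clean-air RNA_1, RNA_101 and RNA_102 (247 to 773 CPM) and at most 3.95 CPM in the other 5 libraries. Of 20 tested basal and squamous genes, 0 were called (1 lower at an unadjusted p under 0.05; 0 higher and 1 lower by DESeq2).

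**Figure D5:**
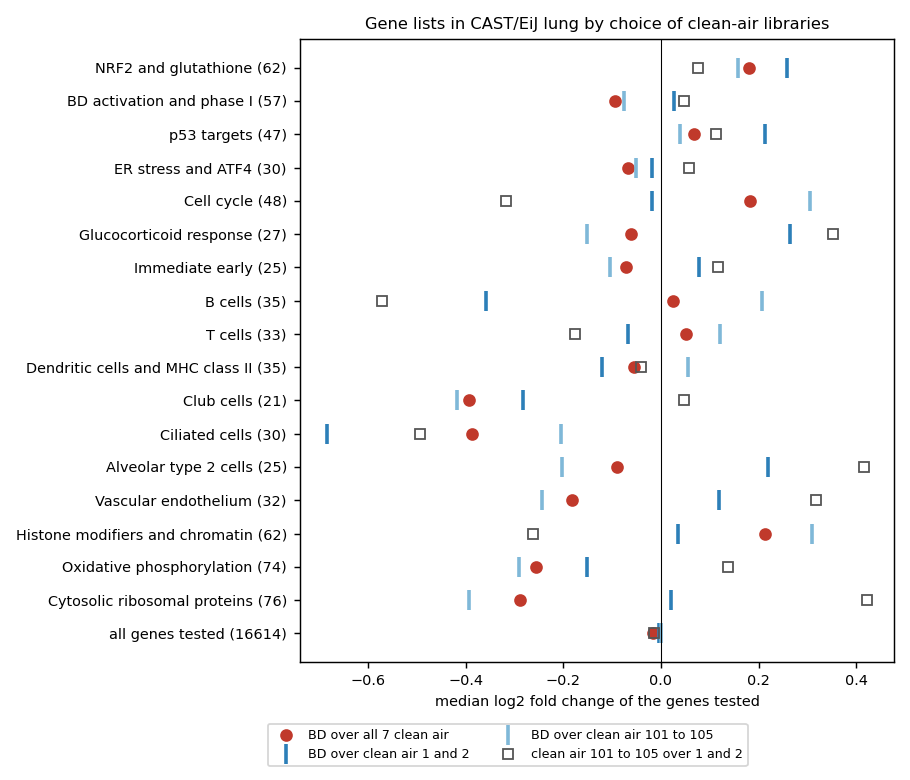
Median log2 fold change of 17 gene lists and of all genes tested in CAST/EiJ lung, with the number of genes tested in brackets. Red points compare BD with all 7 clean-air libraries, dark blue ticks with numbers 1 and 2, light blue ticks with numbers over 100, and open squares give clean-air numbers over 100 over 1 and 2. The NRF2 list lies above 0 and the club cell list below 0 against either set of clean-air libraries, while ribosomal proteins lie near 0 against numbers 1 and 2 and at -0.39 against numbers over 100.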

How the data were processed

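Per the labels' protocols, RNA was extracted with RNeasy and made into poly(A) TruSeq libraries; the submitters' processing notes name GSNAP and mouse build mm9, with no versions. The authors deposited 1 table of raw read counts per gene for the 24 RNA-seq libraries, with 23893 entries, of which 985 were identical to another entry. No counting tool or strand setting was given in the sources used here, so overlapping and near-identical genes are uncertain. From the deposited counts, 12 CAST/EiJ libraries were fitted in edgeR 4.0.16 (filterByExpr, TMM factors, robust quasi-likelihood F test), which left 16614 genes; p-values were adjusted by Benjamini-Hochberg over all of them and genes were called at an adjusted p under 0.05. SE is the log2 fold change divided by the square root of F, and CPM are counts per 1000000 of the TMM-scaled library. A list score is the mean log2(CPM + 1) of its genes. Strains were compared by the interaction contrast over 23 libraries (17377 genes). No libraries agreed within sampling noise: the closest of 66 pairs had a chi-square of 9.01 per degree of freedom.

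Named genes were the 12 highest and 12 lowest log2 fold changes and then the 6 smallest p-values among called genes whose mean reached 1 CPM in either group, with the same sign against both clean-air series. Up to 3 called members of each main list per direction and the BD enzymes were named without that minimum. The members and the 44 gene lists were chosen with earlier results of these data known. limma 3.58.1 voom, DESeq2 1.42.0, other scaling and filters, number 8 kept, other sets of clean-air libraries and each library left out were alternatives. On counts simulated for the 12-library comparison (16479 genes), 49.3%, 89.6% and 98.5% of genes changed 1.5-, 2- and 4-fold were recovered, with 8 false of 166 calls. The simulated clean-air libraries shared 1 mean per gene, without a number-series difference or RNA of other tissues. Genes at low levels were not changed. These shares therefore do not give the error or recovery of the real comparison. Small RNA and ATAC-seq libraries were not used here. Results of a few named or listed genes are not reported here.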

Additional observations from a re-analysis of the deposited data

Results flagged for a closer look

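Values of the named genes and list scores were examined for a library that stood apart from the rest of its group. Of 174 groups of values, 15 held one, where chance marks about 1 in 20, or 8.7. In BD number 9, Eid3 was 15.6 CPM (the other BD libraries 8.22 to 9.77), Chac1 was 6.79 CPM (4.07 to 4.78) and the mean log2 level of erythroid genes was 5.32 (5.78 to 5.87). In BD number 12, Cyp2e1 was 112 CPM (30.6 to 43.1), Ndufc1 was 25.1 CPM (21.1 to 21.6) and the fibroblast and collagen level was 7.05 (6.73 to 6.80). Snhg11 was 82.8 CPM in BD number 10 (46.2 to 56.0), and the immediate early level was 4.21 in BD number 7 (4.62 to 4.73). In clean-air number 1, Snhg11 was 36.6 CPM (the other clean-air libraries 18.6 to 24.2), Klk1 was 7.06 CPM (2.07 to 3.49) and the interferon-stimulated level was 4.60 (3.97 to 4.11). In clean-air number 2, Plk3 was 19.5 CPM (13.4 to 15.7) and the liver level was 6.91 (1.44 to 3.62). Ndufc1 was 36.04 CPM in clean-air RNA_101 (26.1 to 29.7), and the neutrophil level was 3.10 in clean-air RNA_104 (3.43 to 3.68).

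The log2 response to BD differed between CAST/EiJ and C57BL/6J, by edgeR's test of the difference, in 13 of 43 named genes. It was higher in CAST/EiJ by 2.81 for Slc26a4, 1.98 for Tas2r143, 1.58 for Mcmdc2, 1.13 for Snhg11, 0.84 for Mthfd2 and 0.59 for Zmat3. The difference was -1.71 for Scgb3a2, -1.14 for C1qtnf3, -1.05 for Bche, -0.69 for Ndufc2, -0.59 for Nqo1, -0.45 for Ephx1 and -0.45 for Gstt1. Over 29 alternatives, 23 of them with 1 library left out, C1qtnf3 was called in 29, Bche and Snhg11 in 28, Slc26a4 in 27 and Scgb3a2 in 26, but Nqo1 in 16, Ephx1 and Gstt1 in 8 and Mthfd2 in 6. Only C1qtnf3 and Bche were called both without the numbers over 100 and with the series as a covariate. Slc26a4 (edgeR adjusted p = 0.145) and Mcmdc2 (0.0666) failed the first, and Tas2r143 (0.145), Snhg11 and Scgb3a2 the second. Zmat3, Ndufc2, Nqo1, Mthfd2, Ephx1 and Gstt1 failed both.

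The library left out, number 8, had a high Srxn1 level, at 68.0 CPM, where the other CAST/EiJ BD libraries had 82.3 to 128 CPM and the C57BL/6J BD libraries 62.3 to 78.4 CPM, against 30.9 to 35.7 CPM in CAST/EiJ and 21.2 to 25.5 CPM in C57BL/6J clean air. Its Gclc level was 606 CPM, where the other CAST/EiJ BD libraries had 487 to 950.0 CPM and the C57BL/6J BD libraries 451 to 680 CPM, against 178 to 273 CPM in CAST/EiJ and 189 to 241 CPM in C57BL/6J clean air.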

How the results depend on the processing

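The 159 genes called in CAST/EiJ became 66 without the filter on low counts, 1463 with DESeq2 (774 higher and 689 lower), 256 with limma-voom, 1255 with the spread estimated over all 23 libraries, 15 with clean-air numbers 1 and 2 as the only clean air, 3686 with numbers over 100 as the only clean air and 275 with the number series as a covariate (68 higher and 207 lower, 55 of them among the 159). With number 8 kept the count was again 159, of which 100 were among the 159. Leaving out 1 library gave 21 to 1675. The 1641 genes whose response differed between strains became 1041 without the filter, 320 without the numbers over 100, 84 with the number series as a covariate and 372 to 3392 with 1 library left out. The 3392 were called without the 1 clean-air library of C57BL/6J whose number was over 100. The 2268 genes that differed between the clean-air series became 490 to 2137 with 1 library left out. All 159 genes kept 1 direction against either clean-air series. In the alternatives the direction was compared only with that against numbers 1 and 2. It was the same for 66 of 66 genes called without the filter. Without clean-air number 1 it was the same for 1546 of 1675, and without number 2 for 723 of 760. In those 2 fits a single library stood for numbers 1 and 2. In the other 10 fits with 1 library left out it was the same for all called genes, 21 of 21 to 89 of 89. Of 44 named genes, 3 uncalled log2 fold changes (Cyp2e1, Ephx1 and Gstt1) changed sign in an alternative, as did 4 uncalled interaction ratios (Srxn1, Tsku, Plk3 and Ms4a2). The medians of 24 of the 44 lists changed sign in 64 fits. Among them were the liver list (-2.47; 0.49 by DESeq2, 0.64 by limma-voom, 1.97 with numbers over 100 alone and 0.39 without clean-air number 2) and the ribosomal list (-0.29; 0.04 with numbers 1 and 2 alone and with the covariate). Srxn1 was called in all 21 alternatives run for it, with a highest adjusted p of 0.0277. Which cause lies behind these shifts was not tested. With 2 clean-air libraries in the number series of the BD libraries, precision there is limited. No paired analysis was possible because the title numbers of the BD and clean-air libraries are not shared, and replicate numbers given in accession order pair nothing.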
